A study of Homo sapiens with 4 samples.

Results

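Phase II conjugation enzymes attach a sugar acid, a sulfate or a glutathione to drugs, hormones, bile pigments and reactive metabolites. They were described here in MHCC97H cells, an established human hepatocellular carcinoma line, after knockdown of the splicing regulator HNRNPM. The enzymes were chosen by name, as gene names of the UGT1, UGT2 and UGT3, SULT, cytosolic and kappa GST, and MGST patterns. These patterns gave 47 of the 39306 names in the tables. The enzymes and the gene lists further below were chosen with earlier results of these data known. Of these, 16 were UDP-glucuronosyltransferases (9 UGT1A and 7 UGT2 names), 12 were sulfotransferases, 16 were glutathione S-transferases and 3 were microsomal glutathione S-transferases. The study sequenced ribosomal RNA-depleted total RNA of 2 HNRNPM knockdown libraries, from cells with a short hairpin RNA against HNRNPM, and 2 wild-type libraries, from cells of wild-type HNRNPM genotype. The labels name no control hairpin for the wild-type cells and leave unsaid whether the knockdown libraries share 1 hairpin or 1 clone. Column names in the tables carry NC for wild-type and sh for knockdown libraries, each with a 1 or a 2, and neither the abbreviation NC nor whether the numbers count hairpins or replicates is spelled out. Separate cultures are not stated for the replicates either. The p-values therefore rest on the spread among these 4 libraries, part or all of which may be technical.

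UDP-glucuronosyltransferases sit in the endoplasmic reticulum and take glucuronic acid from UDP-glucuronic acid. Cytosolic sulfotransferases take sulfate from the donor PAPS, and glutathione S-transferases join glutathione to electrophiles. In liver these reactions make lipophilic compounds water-soluble, and transporters of the ABCC and ABCG families then export the products. The UGT1A enzymes are encoded by a single locus in which alternative first exons, each with its own promoter, are spliced to the same downstream exons.

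Levels are in RPKM, the density of reads over a gene's exon length scaled to the total of assigned reads, as deposited. Fold changes are log2 differences of scaled RPKM plus 0.1, knockdown over wild type, from limma, and a gene was called at a Benjamini-Hochberg adjusted p under 0.05 over all 20221 genes tested. Assigned reads numbered 12708165 and 11498663 in the knockdown libraries, against 18317579 and 19659106 in the wild-type libraries. HNRNPM itself stood at 21.8 and 20.4 RPKM in the knockdown libraries and at 51.3 and 51.6 RPKM in the wild-type libraries (log2 change -1.35 ± 0.07 SE, limma, adjusted p = 0.00270). Of 16 hepatocyte and hepatoma markers found, 11 reached 1 RPKM in all 4 libraries, and AFP, alpha-fetoprotein, was among the 5 that did not. The 16 summed to 1147 and 1190 RPKM in knockdown and 955 and 859 RPKM in wild-type libraries, most of it from the keratins KRT8, at 638 and 672 RPKM in knockdown and 538 and 506 RPKM in wild-type libraries, and KRT18, at 438 and 449 RPKM in knockdown and 340 and 278 RPKM in wild-type libraries. KRT18 was called higher (log2 change 0.47, limma, adjusted p = 0.0382). ALB, serum albumin, was called lower, at 1.75 and 1.78 RPKM in knockdown and 5.35 and 6.28 RPKM in wild-type libraries (-1.72, adjusted p = 0.00366), so the markers did not all move one way. The 7 fibroblast and stellate markers summed to 3.70 to 3.72 RPKM in knockdown and 1.28 to 1.50 RPKM in wild-type libraries. Only LUM among them was above 1 RPKM in all libraries. The 4 endothelial markers summed to 6.78 to 7.19 RPKM in knockdown and 9.55 to 10.2 RPKM in wild-type libraries, and the 4 immune markers to 60.3 to 62.0 RPKM in knockdown and 46.6 to 58.0 RPKM in wild-type libraries. Only PECAM1 and CD68 among these were above 1 RPKM in all libraries, and no marker found was at 0 in all 4. The part of these markers in the results below was not tested. In these bulk samples, fewer cells with a transcript and less transcript per cell cannot be told apart.

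After HNRNPM knockdown all 11 tested glucuronosyltransferase names were lower, 3 sulfotransferases were higher, and most glutathione transferases did not pass the test. Of the 47 enzymes, 34 had enough reads to be tested. Of these, 3 were called higher (8.82%, against 11.1% of all tested genes), 15 lower (44.1%, against 13.8% of all tested genes) and 16 in neither direction (24.9% of all tested genes were called). The higher genes were SULT1C4, SULT2B1 and SULT1C2. The lower ones were the 9 UGT1A names, UGT2A3, UGT2B7, SULT1A4, GSTA1, GSTA4 and MGST1.

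The count of lower enzymes leans on the UGT1A locus, whose 9 names share exons. Taken as 1, they left 26 genes, with 3 higher (11.5%) and 7 lower (26.9%). Without them, 25 genes were left, with 3 higher, 6 lower and a median log2 change of -0.24, beside -0.37 over all 34 and -0.03 over all tested genes. The knockdown and wild-type libraries did not overlap for 28 of the 34 enzymes (82.4%), 5 higher and 23 lower. That count takes the UGT1A names as 9. Among the 25 genes without them, 5 were higher and 14 lower with no overlap. Groups of all tested genes did not overlap for 67.6%, with 31% higher and 36.6% lower. With values as deposited in place of trimmed-mean scaling, 2783 genes were called higher and 2234 lower (55.5% of calls higher), against 2240 higher and 2792 lower in the scaled values (44.5% higher). The enzymes then numbered 3 higher and 12 lower. With no filter on low values, 1 enzyme was called higher (SULT1C4) and 9 lower, the UGT1A names.

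**Figure D1:**
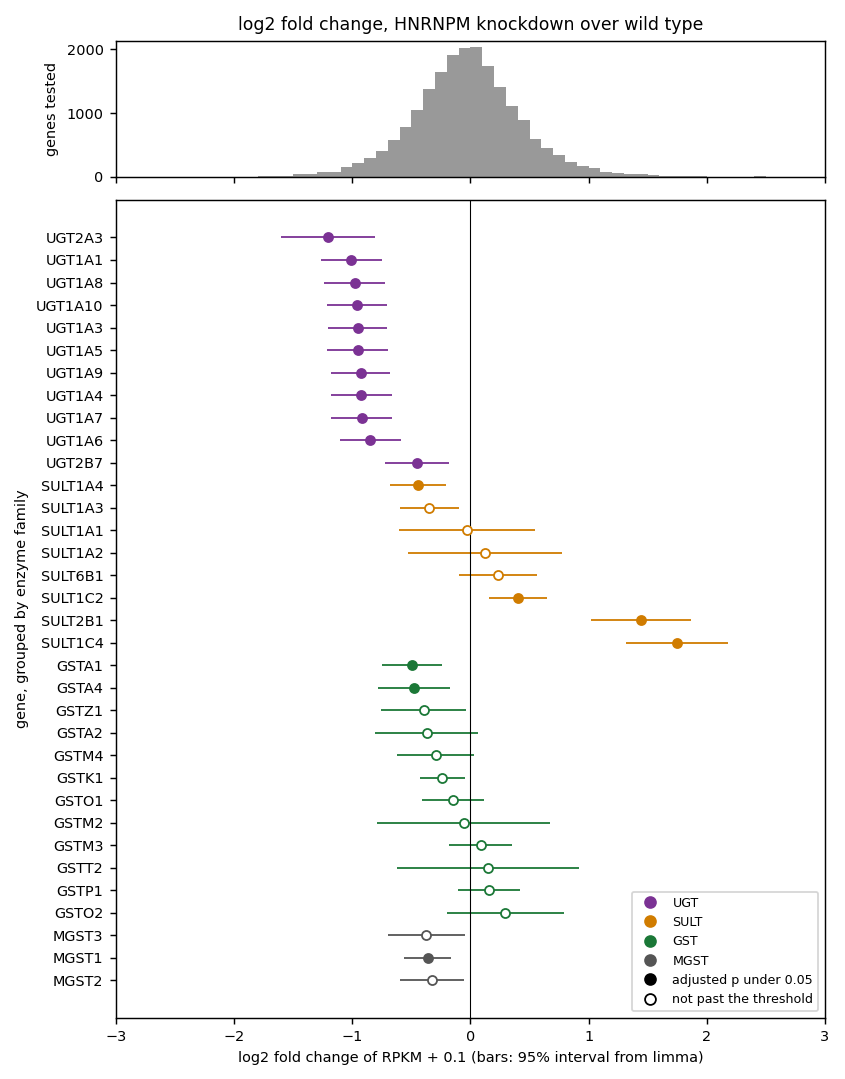
Upper panel: number of genes (vertical axis) by log2 fold change of RPKM + 0.1, HNRNPM knockdown over wild type (horizontal axis), for all tested genes within 3 log2 units; 9 lie beyond. Lower panel: the 34 tested phase II genes with the 95% interval from limma, coloured by family, filled where the adjusted p was under 0.05; the 11 UGT genes lie left of 0, from -1.21 to -0.45, and SULT1C4 and SULT2B1 lie farthest right, at 1.75 and 1.45.

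All 9 UGT1A names were lower after HNRNPM knockdown, by close amounts. The locus spans chr2:233617645-233773310 on the plus strand (GRCh38, from the tables), with UGT1A8 starting farthest from the common exons, at 149389 bases, and UGT1A1 nearest, at 6786 bases. The common exons lie between bases 233767034 and 233773299 and give 1478 bases to each name. Reads there appear to have been counted for all 9, though the counting setting for reads on shared exons is not stated. The values of the 9 names are therefore not taken as independent measurements.

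The promoters of the individual first exons differ, and 4 of them are printed here because each holds the motif GTTAAT or its reverse complement ATTAAC. The sequences are from RefSeq (GRCh38.p14, plus strand, 5′ to 3′, bases 110 to 41 before the RefSeq start), with matches to GTTAAT and, in UGT1A6, to TGACNNNGC in capitals. These are chr2:233692780-233692849 for UGT1A6, chr2:233712797-233712866 for UGT1A5, chr2:233728932-233729001 for UGT1A3 and chr2:233760160-233760229 for UGT1A1.
UGT1A6: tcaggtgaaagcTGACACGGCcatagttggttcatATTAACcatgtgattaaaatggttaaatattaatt
UGT1A5: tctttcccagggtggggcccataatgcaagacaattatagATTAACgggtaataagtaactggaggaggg
UGT1A3: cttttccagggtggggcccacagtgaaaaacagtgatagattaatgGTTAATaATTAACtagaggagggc
UGT1A1: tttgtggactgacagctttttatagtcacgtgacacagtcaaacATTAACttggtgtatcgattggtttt

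RefSeq promoter windows, from 250 bases before to 50 after the start, were found for 39 of the 47 enzymes (43 windows) and 8 of the 9 UGT1A names. GTTAAT, searched on both strands, was in 8 of the 43 windows and in 6.88% of all 35116 windows. The 8 belong to 7 enzymes, UGT1A6, UGT1A5, UGT1A3, UGT1A1, GSTA2, GSTA1 and MGST1, the last with 2 overlapping windows. GCGTG, the core of a dioxin response element, was in 14 of the 43 windows and in 36.5% of all windows. These were of 14 enzymes, 6 of them UGT1A names. TGACNNNGC, the core of an antioxidant response element, was in 11 of the 43 windows, of 11 enzymes, and in 13.4% of all windows. A match describes the letters only.

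UGT1A10, an enzyme known mainly from gut, had the highest RPKM of the names. Reads of the common exons appear to count for all 9 names and are divided by differing exon lengths. The order in RPKM therefore does not rank the enzymes. UGT1A10 stood at 58.0 and 58.4 RPKM in the knockdown libraries, against 99.7 and 118 RPKM in the wild-type libraries. UGT1A8, also known from gut, stood at 53.7 and 54.9 RPKM in knockdown and at 93.9 and 112 RPKM in wild-type libraries. Both knockdown libraries were lower than both wild-type libraries for each name, and the log2 changes were -0.96 ± 0.10 for UGT1A10 (limma, adjusted p = 0.00533) and -0.98 ± 0.10 for UGT1A8 (adjusted p = 0.00536). UGT1A1, the enzyme that glucuronidates bilirubin, stood at 38.8 and 40.6 RPKM in knockdown and at 70.1 and 83.5 RPKM in wild-type libraries. It had the largest log2 change of the 9 names, -1.01 ± 0.10 (limma, adjusted p = 0.00528). UGT1A6, which conjugates planar phenols, had the smallest, -0.85 ± 0.10 (adjusted p = 0.00655), at 29.4 and 29.9 RPKM in knockdown and 46.8 and 55.9 RPKM in wild-type libraries.

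The other 5 names lay between these in log2 change. UGT1A9, which glucuronidates phenols such as propofol, stood at 52.9 and 53.9 RPKM in knockdown and 89.5 and 106 RPKM in wild-type libraries (log2 change -0.93 ± 0.10, limma, adjusted p = 0.00557). UGT1A4, known for glucuronidation of amines, stood at 51.4 and 52.2 RPKM in knockdown and 86.2 and 103 RPKM in wild-type libraries (-0.93 ± 0.10, adjusted p = 0.00585). UGT1A3, which also conjugates bile acids, stood at 52.0 and 52.7 RPKM in knockdown and 89.3 and 106 RPKM in wild-type libraries (-0.96 ± 0.10, adjusted p = 0.00533). Again no knockdown library reached a wild-type library. UGT1A7 stood at 30.8 and 31.2 RPKM in knockdown and 51.5 and 61.5 RPKM in wild-type libraries (-0.92 ± 0.10, adjusted p = 0.00585). UGT1A5 stood at 52.1 and 52.4 RPKM in knockdown and 88.7 and 106 RPKM in wild-type libraries (-0.95 ± 0.10, adjusted p = 0.00557). The 2 knockdown libraries lay close together for each name, and wild-type replicate 2 was above wild-type replicate 1 for all 9. As 1 summed row, the names gave 419 and 426 RPKM in knockdown and 716 and 852 RPKM in wild-type libraries, with a log2 change of -0.95 ± 0.12 (limma, adjusted p = 0.00711). All 9 calls held in all 14 alternatives.

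**Figure D2:**
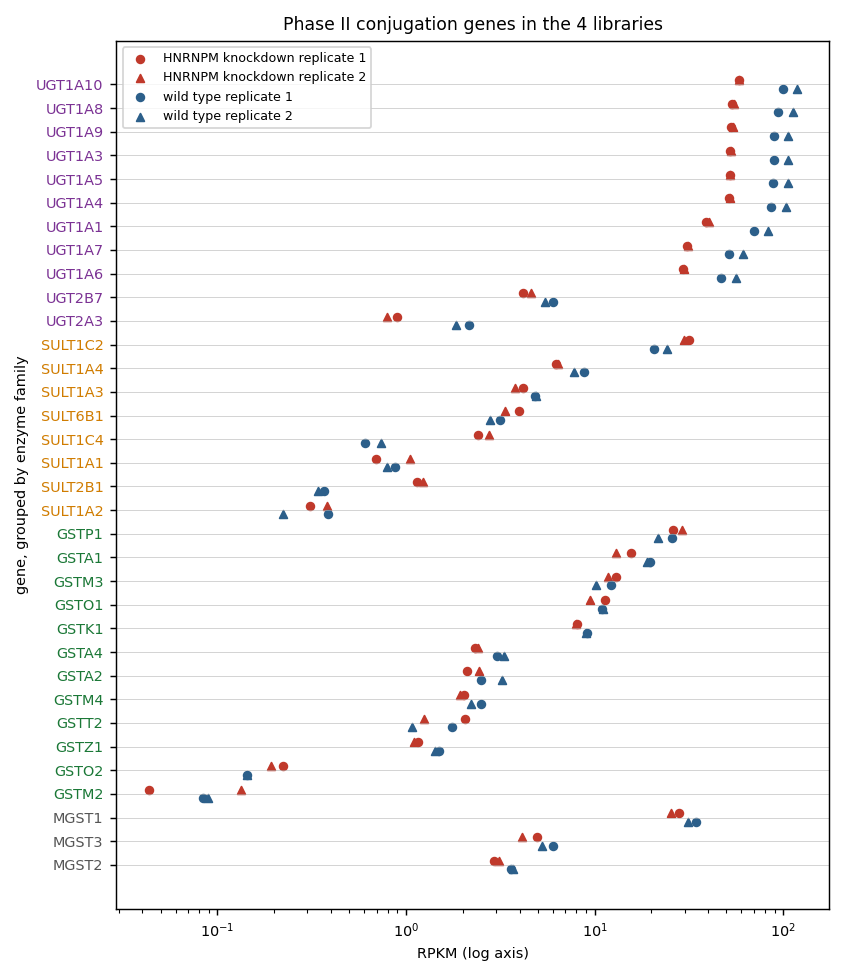
RPKM (horizontal log axis) of the 34 tested phase II genes in HNRNPM knockdown replicates 1 and 2 (red circle and triangle) and wild-type replicates 1 and 2 (blue circle and triangle), by family. The UGT1A names lie at the right with the red symbols left of the blue, for example 58.0 and 58.4 against 99.7 and 118 RPKM for UGT1A10, while red lies right of blue for SULT1C2, SULT1C4 and SULT2B1.

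Reads outside the common exons differed between names. UGT1A5 had the fewest reads in every library. If reads of the common exons were counted for all 9 names, reads above those of UGT1A5 approximate what those exons do not give. Such reads are not all a name's own. Bases shared with some but not all names number 800 in UGT1A6, 755 in UGT1A10, 749 in UGT1A1, 414 in UGT1A3 and 214 in UGT1A7. The measure of reads above UGT1A5 was chosen after the values had been seen, and its differences were not tested. UGT1A10 had 60.8 and 61.6 such reads per 1000000 assigned reads in knockdown and 107 and 125 in wild-type libraries, so the knockdown mean was 52.8% of the wild-type mean. UGT1A1 had 51.1 and 58.6 in knockdown and 105 and 125 in wild-type libraries, a knockdown mean of 47.7% of wild type. These are the names with the most such reads, and they alone share 578 further bases, chr2:233769702-233770279, within the span of the common exons. Reads there appear to have been counted for both.

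UGT1A6 followed, with 29.98 and 31.8 reads above UGT1A5 on the same scale in knockdown and 34.4 and 40.9 in wild-type libraries, a knockdown mean of 82.0% of wild type. Its ratio to UGT1A1 was 0.587 and 0.543 in knockdown and 0.327 and 0.329 in wild-type libraries. The knockdown ratios were thus both above the wild-type ratios. UGT1A6 and UGT1A1 each share further bases with other names, so the ratio is not of their own reads alone. UGT1A8 had 7.16 and 9.22 in knockdown and 18.2 and 21.2 in wild-type libraries, with the knockdown mean at 41.6% of wild type. For UGT1A9, UGT1A7 and UGT1A4, the knockdown mean was 82.7%, 91.1% and 78.2% of wild type, from 5.74 to 11.2 such reads per 1000000 in any library. UGT1A3 had 9 to 59 such reads in a library, too few to compare. The exons of UGT1A6 also overlap those of the antisense names AC114812.5 (656 bases) and AC114812.8 (404 bases). Whether reads were counted by strand is not stated, so those of UGT1A6 and of these names cannot be told apart. AC114812.8 stood at 19.1 and 19.2 RPKM in knockdown and 19.7 and 23.9 RPKM in wild-type libraries and was not called (limma, adjusted p = 0.159).

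**Figure D3:**
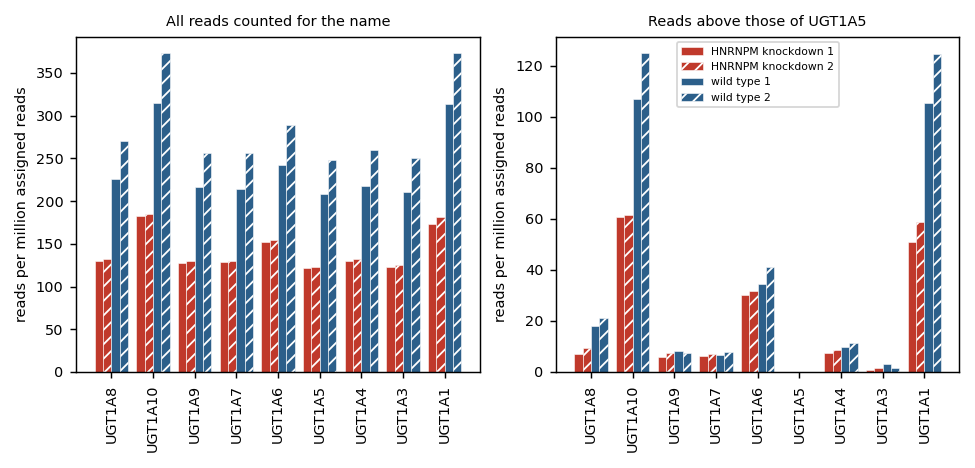
Reads per 1000000 assigned reads (vertical axes) for the 9 UGT1A names in HNRNPM knockdown (red) and wild-type (blue) libraries, replicate 2 hatched; left, all reads counted for a name, right, reads above those of UGT1A5. On the right, UGT1A10 and UGT1A1 stand at 51.1 to 61.6 in knockdown and 105 to 125 in wild-type libraries, and UGT1A6 at 29.98 to 31.8 and 34.4 to 40.9.

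The UGT2 genes lie apart from UGT1A, on chromosome 4, and only UGT2A3 and UGT2B7 had enough reads. UGT2A3 (chr4:68928463-68951791, minus strand), an enzyme that conjugates bile acids, was lower after knockdown, at 0.899 and 0.795 RPKM, against 2.16 and 1.84 RPKM in wild-type libraries. Its log2 change, -1.21 ± 0.16, was the largest decrease of the 34 enzymes (limma, adjusted p = 0.00772), on 28 to 121 reads per library. The call was lost with no filter on low values, where the adjusted p was 0.0513, the highest of its 14 alternatives (0.000132 to 0.0513). UGT2B7 (chr4:69051363-69112987, plus strand), the main morphine glucuronidating enzyme, stood at 4.15 and 4.58 RPKM in knockdown and at 6.02 and 5.47 RPKM in wild-type libraries. The groups did not overlap, and the log2 change of -0.45 ± 0.11 passed the test by a small margin (limma, adjusted p = 0.0352). Without each library in turn it lay between -0.53 and -0.37 with an adjusted p of 0.0613 to 0.144. The call was also lost with values as deposited (0.0515) and with no filter on low values (0.0928), in a range of 0.0124 to 0.144 over its alternatives. Summed over the 7 UGT2 names, levels were 5.50 and 5.57 RPKM in knockdown and 8.41 and 7.63 RPKM in wild-type libraries.

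Among the sulfotransferases, 3 of the 8 tested genes rose (37.5%, against 11.1% of all tested genes) and SULT1A4 fell (12.5%, against 13.8%). SULT1C4 (chr2:108377911-108388057, plus strand), a sulfotransferase of phenols best known from fetal tissue, stood at 2.42 and 2.76 RPKM in knockdown and at 0.603 and 0.737 RPKM in wild-type libraries. Each knockdown library was above both wild-type libraries, on 89 and 92 reads in knockdown and 32 and 42 reads in wild-type libraries. The log2 change was 1.75 ± 0.17 (limma, adjusted p = 0.00494), the largest of all 34 enzymes in either direction, and the call held in all 14 alternatives. SULT1C2 (chr2:108288639-108309915, plus strand) lies beside it in the same gene cluster and was the most abundant sulfotransferase, at 31.7 and 29.9 RPKM in knockdown and 20.6 and 24.1 RPKM in wild-type libraries. Its log2 change was smaller, 0.40 ± 0.10 (limma, adjusted p = 0.0372), although the groups did not overlap. Without knockdown replicate 1, knockdown replicate 2 or wild-type replicate 1 it was 0.28 to 0.44 with an adjusted p of 0.0681 to 0.136. It also missed the threshold with no filter (0.123) or with a filter at 1 RPKM (0.0552), within 0.000428 to 0.136 over all 14. The third gene of the cluster, SULT1C3, had at most 3 reads in a library.

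SULT2B1 (chr19:48552075-48599425, plus strand), which sulfates cholesterol and other sterols, rose. It stood at 1.14 and 1.23 RPKM in knockdown and at 0.368 and 0.342 RPKM in wild-type libraries. The groups lay well apart, but on 41 and 40 reads in knockdown and 19 and 19 reads in wild-type libraries. The log2 change was 1.45 ± 0.17 (limma, adjusted p = 0.00625). It was lost only with no filter on low values, at 0.0597, the highest of its 14 alternatives (0.000129 to 0.0597).

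SULT1A4 and SULT1A3 on chromosome 16 are near-identical copies that sulfate dopamine and other catecholamines, and their reads cannot be assigned with certainty. SULT1A4 (chr16:29459889-29464976, plus strand) stood at 6.24 and 6.42 RPKM in knockdown and at 8.80 and 7.79 RPKM in wild-type libraries (log2 change -0.45 ± 0.09, limma, adjusted p = 0.0255). SULT1A3 (chr16:30199228-30204310, plus strand) stood at 4.15 and 3.80 RPKM in knockdown and at 4.84 and 4.89 RPKM in wild-type libraries (-0.35 ± 0.10, adjusted p = 0.0568), and missed the threshold. Both copies, summed, gave 10.4 and 10.2 RPKM in knockdown and 13.6 and 12.7 RPKM in wild-type libraries, with no overlap. Without knockdown replicate 1, knockdown replicate 2 or wild-type replicate 1 the SULT1A4 change was -0.47 to -0.37 with an adjusted p of 0.0722 to 0.102, and the call was also lost with no filter (0.0743), in a range of 0.00815 to 0.102 over 14 alternatives. Most of the exon length of both is shared with the read-through names SLX1B-SULT1A4 (1687 bases) and SLX1A-SULT1A3 (1811 bases). SLX1B-SULT1A4 was lower too, at 7.32 and 7.66 RPKM in knockdown and 11.2 and 10.6 RPKM in wild-type libraries (-0.60, adjusted p = 0.00826). SLX1A-SULT1A3 was also called lower, at 7.37 and 7.22 RPKM in knockdown and 9.97 and 10.5 RPKM in wild-type libraries (-0.54, adjusted p = 0.0104), although SULT1A3 itself was not called.

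The other 3 tested sulfotransferases were not called. SULT6B1, of little known function, stood at 3.98 and 3.35 RPKM in knockdown and 3.13 and 2.80 RPKM in wild-type libraries (log2 change 0.23, limma, adjusted p = 0.248). SULT1A1, the main phenol sulfotransferase of adult liver, was low, at 0.689 and 1.04 RPKM in knockdown and 0.876 and 0.788 RPKM in wild-type libraries. Its log2 change was -0.03 with a 95% interval of -0.60 to 0.55 (adjusted p = 0.945), which leaves sizable changes in both directions possible. The sign turned under some alternatives. SULT1A2, its close relative, stood at 0.311 and 0.382 RPKM in knockdown and 0.384 and 0.224 RPKM in wild-type libraries (0.12, interval -0.53 to 0.77, adjusted p = 0.760).

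Of the 12 tested glutathione S-transferases, GSTA1 and GSTA4 fell (16.7%, against 13.8% of all tested genes) and none rose (against 11.1%). GSTA1 (chr6:52791664-52803910, minus strand), the major alpha class enzyme of hepatocytes, stood at 15.7 and 13.0 RPKM in knockdown and at 19.7 and 18.9 RPKM in wild-type libraries. The groups did not overlap (log2 change -0.50 ± 0.10, limma, adjusted p = 0.0236). Without knockdown replicate 2, wild-type replicate 1 or wild-type replicate 2 the change was -0.52 to -0.37 with an adjusted p of 0.0739 to 0.0856. With no filter on low values it was 0.0903, in a range of 0.00313 to 0.0903 over 14 alternatives. GSTA4 (chr6:52977948-52995378, minus strand), which conjugates the lipid peroxidation product 4-hydroxynonenal, stood at 2.32 and 2.40 RPKM in knockdown and at 3.04 and 3.32 RPKM in wild-type libraries (-0.48 ± 0.12, adjusted p = 0.0417). Its groups did not overlap either, but leaving out any single library gave -0.55 to -0.41 with an adjusted p of 0.0823 to 0.153. It was lost as well with values as deposited (0.0567), with no filter (0.1002) and under a crossed replicate pairing (0.0609), in a range of 0.0350 to 0.153.

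GSTA2, the near copy of GSTA1, was lower in level in both knockdown libraries but was not called, at 2.10 and 2.45 RPKM in knockdown and 2.49 and 3.22 RPKM in wild-type libraries (log2 change -0.37 ± 0.17, limma, adjusted p = 0.173). The promoters of this pair are printed to show how alike they are: 97 of 100 letters are the same. They are from RefSeq (GRCh38.p14, minus strand, 5′ to 3′, bases 220 to 121 before the start), chr6:52803937-52804036 for GSTA1 and chr6:52763596-52763695 for GSTA2, with the match to GTTAAT, read as ATTAAC, in capitals.
GSTA1: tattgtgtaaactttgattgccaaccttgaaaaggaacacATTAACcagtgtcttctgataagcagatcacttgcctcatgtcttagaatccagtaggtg
GSTA2: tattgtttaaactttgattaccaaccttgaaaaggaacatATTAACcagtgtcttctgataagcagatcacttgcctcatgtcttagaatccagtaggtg

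GSTP1 (chr11:67583595-67586660, plus strand), the pi class enzyme often raised in tumours, was the most abundant glutathione S-transferase and was not called. It stood at 26.0 and 29.02 RPKM in knockdown and at 25.6 and 21.7 RPKM in wild-type libraries, with both knockdown libraries above both wild-type libraries by deposited values but not after scaling. The log2 change was 0.16 ± 0.10 with an interval of -0.11 to 0.42 (limma, adjusted p = 0.317). Its promoter is shown because it alone among the enzymes' windows held TGANTCA, the AP-1 site, here within a TGACNNNGC match (in capitals). TGANTCA, whose reverse complement is the same pattern, was in 7.71% of all windows. The stretch is chr11:67583702-67583801 (RefSeq, GRCh38.p14, plus strand, bases 110 to 11 before the start).
GSTP1: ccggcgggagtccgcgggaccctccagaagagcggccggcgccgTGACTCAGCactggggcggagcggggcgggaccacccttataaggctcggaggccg

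The remaining 8 glutathione S-transferases tested were not called either. GSTM3, a mu class enzyme, stood at 12.9 and 11.8 RPKM in knockdown and at 12.2 and 10.2 RPKM in wild-type libraries (log2 change 0.09, interval -0.18 to 0.35, limma, adjusted p = 0.592). GSTO1, an omega class enzyme that acts as a thiol transferase, stood at 11.4 and 9.46 RPKM in knockdown and at 10.9 and 11.1 RPKM in wild-type libraries (-0.15, interval -0.41 to 0.11, adjusted p = 0.343). For both genes the intervals held 0. GSTK1, the kappa class enzyme of mitochondria and peroxisomes, stood at 8.06 and 7.94 RPKM in knockdown and at 9.13 and 8.96 RPKM in wild-type libraries. Its groups did not overlap and it missed the threshold (-0.24 ± 0.08, adjusted p = 0.0744). GSTZ1, which acts in tyrosine breakdown, was likewise lower in level without a call, at 1.15 and 1.11 RPKM in knockdown and 1.49 and 1.42 RPKM in wild-type libraries (-0.40 ± 0.14, adjusted p = 0.0982). GSTM4, GSTT2, GSTO2 and GSTM2 had mean levels from 0.0866 to 2.35 RPKM in wild-type libraries and log2 changes from -0.29 to 0.30, with an adjusted p of 0.154 to 0.906. GSTT2 shares its sequence with the near-identical copy GSTT2B. The pair summed to 3.85 and 2.91 RPKM in knockdown and 4.04 and 2.93 RPKM in wild-type libraries, which overlap.

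The 3 microsomal glutathione S-transferases, membrane proteins of the MAPEG family, all had lower levels in the knockdown libraries. Their groups did not overlap, and 36.6% of all tested genes were likewise lower with no overlap. MGST1 alone was called lower (33.3%, against 13.8% of all tested genes). MGST1 (chr12:16347142-16609259, plus strand), which protects membranes from lipid peroxides, stood at 28.0 and 25.4 RPKM in knockdown and at 34.3 and 31.3 RPKM in wild-type libraries. The groups did not overlap (log2 change -0.36 ± 0.08, limma, adjusted p = 0.0282). Without knockdown replicate 1, knockdown replicate 2 or wild-type replicate 1 the change was -0.42 to -0.30 with an adjusted p of 0.0689 to 0.144. Values as deposited (0.0555), removal of a length trend (0.0574) and no filter (0.0872) also ended the call, in a range of 0.000627 to 0.144. MGST3 stood at 4.96 and 4.10 RPKM in knockdown and 6.02 and 5.25 RPKM in wild-type libraries (-0.37 ± 0.13, adjusted p = 0.0885). MGST2 stood at 2.94 and 3.116 RPKM in knockdown and 3.62 and 3.69 RPKM in wild-type libraries (-0.33 ± 0.11, adjusted p = 0.0826). The log2 changes of all 3 were thus alike in size, between -0.37 and -0.33.

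Each family was carried by few members. SULT1C2 gave 62.1% and 60.9% of summed sulfotransferase RPKM in knockdown and 51.8% and 57.5% in wild-type libraries, and the family sum was 51.0 and 49.1 RPKM in knockdown and 39.7 and 41.9 RPKM in wild-type libraries. GSTP1 gave 30.8% and 35.9% of glutathione S-transferase RPKM in knockdown and 28.7% and 26.4% in wild-type libraries. That family summed to 84.4 and 80.8 RPKM in knockdown and 89.2 and 82.4 RPKM in wild-type libraries, which overlap. UGT2B7 gave 75.3% and 82.2% of UGT2 RPKM in knockdown and 71.6% and 71.7% in wild-type libraries. MGST1 gave 77.8% to 78.1% of its family in every library, with family sums of 35.9 and 32.6 RPKM in knockdown and 43.9 and 40.3 RPKM in wild-type libraries.

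**Figure D4:**
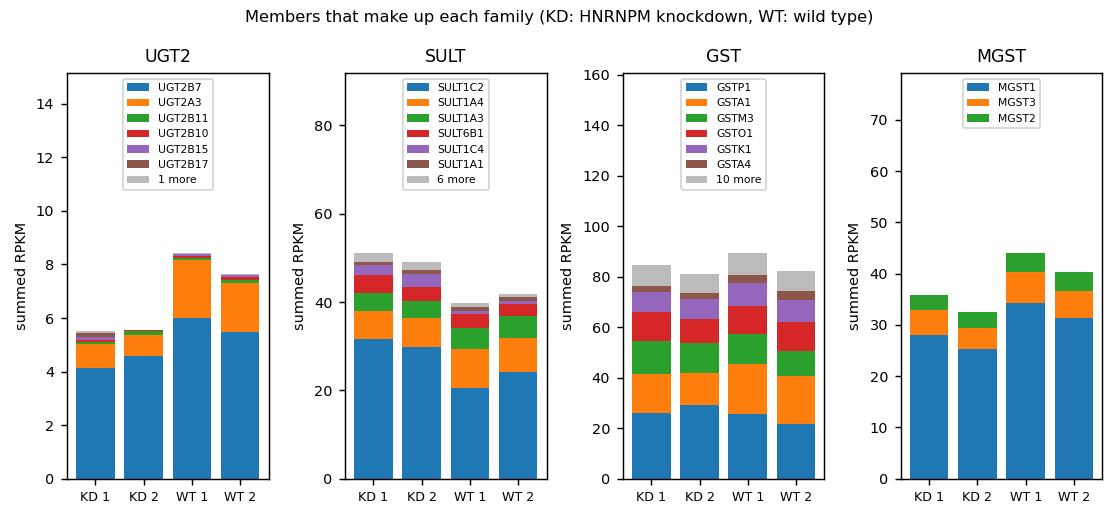
Summed RPKM (vertical axes) of the UGT2, SULT, GST and MGST members in the 2 HNRNPM knockdown (KD) and 2 wild-type (WT) libraries, stacked by member. SULT1C2 is the largest part of the SULT bars, which reach 51.0 and 49.1 in knockdown and 39.7 and 41.9 RPKM in wild-type libraries, and MGST1 makes up nearly the same share of every MGST bar.

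The other 13 enzymes had too few reads to test: UGT2B17, UGT2B15, UGT2B10, UGT2B11, UGT2B28, SULT2A1, SULT1C3, SULT4A1, SULT1B1, GSTM1, GSTM5, GSTA5 and GSTA3. None exceeded 17 reads or 0.338 RPKM in any library, and their totals over the 4 libraries were 2 to 42 reads. SULT2A1, the hydroxysteroid sulfotransferase of adult liver, had 2 reads in all. A count of 0 in a library allows up to 0.0208 to 0.289 RPKM, depending on the gene and the depth (3 reads per library, counting error only), so these genes were near or under the detection limit and changes in them were not detectable at this depth.

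Genes that make, carry or break down the donors of these reactions, or cleave the conjugates, were examined as 3 lists. Each list mixes such roles, so its counts are not of donor-making genes alone. Of 7 genes of UDP-glucuronic acid supply, 1 was called higher (14.3%, against 11.1% of all tested genes) and 3 lower (42.9%, against 13.8%). The median log2 change was -0.29, beside -0.03 over all tested genes. The 3 lower genes were the carriers SLC35D1 and SLC35D2 and the glucuronidase GUSB, none of which makes the donor. PGM1, phosphoglucomutase, stood at 19.0 and 18.9 RPKM in knockdown and at 11.8 and 10.7 RPKM in wild-type libraries (log2 change 0.69, limma, adjusted p = 0.00585). SLC35D1, which carries UDP-glucuronic acid into the endoplasmic reticulum, stood at 1.35 and 1.10 RPKM in knockdown and at 2.68 and 2.70 RPKM in wild-type libraries (-1.14, adjusted p = 0.00777). Carrier and mutase thus moved in opposite directions. The related carrier SLC35D2 had a log2 change of -0.67 (adjusted p = 0.0206), but this was lost with no filter and without knockdown replicate 2, wild-type replicate 1 or wild-type replicate 2 (-0.73 to -0.50, adjusted p 0.0531 to 0.0872, in a range from 0.000268). GUSB, the lysosomal glucuronidase that cleaves glucuronides, stood at 12.1 and 11.5 RPKM in knockdown and at 19.6 and 20.7 RPKM in wild-type libraries (-0.83, adjusted p = 0.00428). UGDH, which makes UDP-glucuronic acid, was abundant and not called, at 126 and 119 RPKM in knockdown and 131 and 129 RPKM in wild-type libraries (-0.15, adjusted p = 0.162).

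Of 13 genes for sulfate donor supply and sulfate ester cleavage, 1 was called higher (7.69%) and 7 lower (53.8%). Of all tested genes, 11.1% were called higher and 13.8% lower. The median log2 change of the list was -0.55. PAPSS2, which makes PAPS, was the higher gene, at 14.9 and 15.97 RPKM in knockdown and 10.4 and 10.8 RPKM in wild-type libraries (log2 change 0.48, limma, adjusted p = 0.0141). SLC26A1, a sulfate transporter, stood at 0.843 and 1.22 RPKM in knockdown and at 3.09 and 2.70 RPKM in wild-type libraries (-1.48, adjusted p = 0.00838, lost only with no filter at 0.0553, in a range from 1.41e-06). The lower genes also held the sulfate transporter SLC26A11 (-0.72, adjusted p = 0.00978), the arylsulfatase ARSA (-0.75, adjusted p = 0.00827) and the sulfatase-modifying factor SUMF2 (-0.55, adjusted p = 0.00827). Importers of sulfate and genes for sulfate ester cleavage were thus both among the lower genes. PAPSS1 stood at 10.3 and 9.23 RPKM in knockdown and 9.37 and 9.17 RPKM in wild-type libraries and was not called (0.01, adjusted p = 0.936).

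Of 13 genes of glutathione supply and turnover, 6 were called lower (46.2%, against 13.8% of all tested genes) and none higher (against 11.1%). The median log2 change was -0.28. SLC7A11, the cystine importer that feeds glutathione synthesis, had the largest change, at 14.7 and 13.8 RPKM in knockdown and 47.3 and 45.1 RPKM in wild-type libraries (log2 change -1.76, limma, adjusted p = 0.00175). Part of its exon length, 865 bases, overlaps SLC7A11-AS1. SLC3A2, its partner chain, stood at 25.3 and 25.8 RPKM in knockdown and at 57.1 and 55.2 RPKM in wild-type libraries (-1.20, adjusted p = 0.00285). OPLAH, 5-oxoprolinase, stood at 5.89 and 6.52 RPKM in knockdown and at 10.3 and 10.2 RPKM in wild-type libraries (-0.78, adjusted p = 0.00628). GCLC, the catalytic subunit of the rate-limiting ligase, was lower by less, at 12.3 and 11.5 RPKM in knockdown and 14.7 and 13.8 RPKM in wild-type libraries (-0.32, adjusted p = 0.0365). Its call was lost in 8 of 14 alternatives, each leave-one-out included (-0.36 to -0.28, adjusted p 0.0684 to 0.174). The synthetase GSS and the reductase GSR were not called, with log2 changes of -0.02 (adjusted p = 0.829) and -0.05 (adjusted p = 0.693).

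All 6 conjugate efflux transporters were called lower after knockdown (100%, against 13.8% of all tested genes), with a median log2 change of -0.91. ABCC2, the canalicular exporter of glucuronides and glutathione conjugates, stood at 44.3 and 44.5 RPKM in knockdown and at 100 and 101 RPKM in wild-type libraries (log2 change -1.24, limma, adjusted p = 0.00273). ABCG2, which exports sulfates, stood at 13.7 and 14.1 RPKM in knockdown and at 34.9 and 32.2 RPKM in wild-type libraries (-1.33, adjusted p = 0.00285). ABCC1 and ABCC4, basolateral exporters, had changes of -0.90 (adjusted p = 0.00382) and -0.93 (adjusted p = 0.00692). For none of the 6 did the groups overlap. Groups did not overlap for 67.6% of all tested genes, and 36.6% of all tested genes were lower with no overlap. In each alternative that kept all 4 libraries, 5 or 6 of the transporters were called.

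Of 18 regulators, 3 were called higher (16.7%, against 11.1% of all tested genes) and 1 lower (5.56%, against 13.8%). In all, 22.2% were called, against 24.9% of all tested genes, and the median log2 change was 0.20. MAFF, a small MAF partner of NRF2, stood at 5.55 and 5.87 RPKM in knockdown and at 2.70 and 2.91 RPKM in wild-type libraries (log2 change 0.94, limma, adjusted p = 0.00610). NR1H4, the bile acid receptor FXR, had a change of 0.56 (adjusted p = 0.0176), lost with no filter (0.0575) and without knockdown replicate 2 or wild-type replicate 1 (0.50 to 0.51, adjusted p 0.0592 to 0.0723, in a range from 0.000588). ARNT, the partner of the dioxin receptor, had a change of 0.39 (adjusted p = 0.0201), lost with no filter and without knockdown replicate 1, knockdown replicate 2 or wild-type replicate 1 (0.35 to 0.42, adjusted p 0.0557 to 0.0989, in a range from 0.000376). NFE2L2, which encodes NRF2, was not called, at 13.3 and 13.0 RPKM in knockdown and 13.5 and 12.3 RPKM in wild-type libraries (-0.04, adjusted p = 0.770). Neither was AHR, the dioxin receptor, at 21.3 and 21.3 RPKM in knockdown and 22.2 and 23.1 RPKM in wild-type libraries (-0.15, adjusted p = 0.154).

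Other conjugating enzymes, outside the name patterns, gave 7 tested genes of 10 in the tables. None was called by limma (24.9% of all tested genes were called). Of the 7, 1 had an unadjusted p under 0.05, and limma-voom on the recovered reads called 1 lower. By limma-voom, 3954 of all 20221 tested genes were called lower. The share of all tested genes with an unadjusted p under 0.05 is not given here. TPMT, NAT1 and AS3MT had log2 changes of 0.18 (adjusted p = 0.497), -0.53 (adjusted p = 0.153) and 0.46 (adjusted p = 0.180), and 96.8% of the exon length of AS3MT is shared with another name. Of 10 further genes of the glutathione transferase fold and the MAPEG family, 8 were tested, with no limma call. Of the 8, limma-voom called 2 lower (against 3954 of all 20221 tested genes), and the same 2 had an unadjusted p under 0.05. These were CLIC1, at 120 and 121 RPKM in knockdown and 131 and 139 RPKM in wild-type libraries (-0.23, adjusted p = 0.0734), and PTGES2, at 18.6 and 20.3 RPKM in knockdown and 22.0 and 21.8 RPKM in wild-type libraries (-0.24, adjusted p = 0.0743). LTC4S and GSTT2B, with changes of 0.62 (adjusted p = 0.154) and -0.30 (adjusted p = 0.201), were not called, and 88.6% of the exon length of LTC4S is shared with MAML1.

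**Figure D5:**
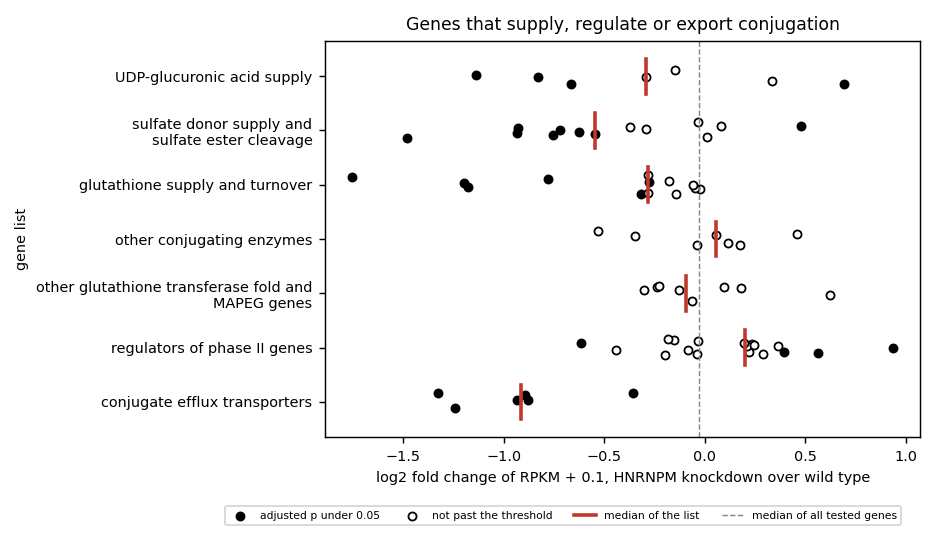
Log2 fold change of RPKM + 0.1, HNRNPM knockdown over wild type (horizontal axis), of each tested gene of the 7 lists (rows), filled where the adjusted p was under 0.05, with the median of each list in red and that of all tested genes as a dashed line. All 6 efflux transporters are filled and lie left of 0 with a median of -0.91, and no gene of the other conjugating enzymes is filled.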

How the data were processed

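For each of 4 libraries the deposited table gave an RPKM value per gene name, which the authors had made from exon reads. The submitters' processing notes list StringTie 1.3.2, edgeR 3.12.1, Subread 1.5.1, featureCounts and Trimmomatic 0.36. No aligner and no strand setting are stated, nor how the molecular identifiers of the labels' protocols were used. The setting for reads on exons of several names is not stated either. Those notes give mouse mm9 as the build, but all 47 enzymes lay on the same chromosome as in the GENCODE annotation of human GRCh38, 45 with the same start and end. RPKM times exon length gave whole reads for 100% of values (within 0.01 of a read), so depth and reads per gene were recovered.

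RPKM was divided by trimmed-mean factors (1.03 and 1.02 for knockdown, 0.984 and 0.972 for wild-type libraries) and 0.1 was added before taking log2. Group was the only term in limma 3.58.1 (R 4.3.3), which was run with an intensity trend, and p-values were adjusted by Benjamini-Hochberg over all tested genes. On this scale low genes show too small a change. Genes needed the equivalent of 10 reads at median depth in 2 libraries and 15 reads in all. With 2 residual degrees of freedom (3.56 prior), p-values lean on the pooled spread. An exact permutation test of 2 against 2 libraries cannot go below p = 0.333. The procedure was tested on simulated data. Intervals and floors cover counting or replicate error only.

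The members and lists were chosen with earlier results of these data known. Named are all enzymes past the threshold or with a log2 change of at least 1, the 3 most abundant of each family, and at most 4 genes per list by smallest adjusted p, some of which are not reported here; UGDH, PAPSS1, PAPSS2, GSS, GSR, NFE2L2 and AHR, the read-through and antisense names and the less abundant enzymes without a call were added after their values were seen. The alternatives were pseudocounts of 1 and 0.01, no filter, a filter at 1 RPKM, values as deposited, median-of-ratios scaling, limma-voom on the recovered reads, removal of a length trend, a replicate block, its crossed form (added after seeing the data) and leaving out each library. Promoter sequences are from RefSeq (GRCh38.p14).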

Additional observations from a re-analysis of the deposited data

How the results depend on the processing

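Calls of the 9 UGT1A names, their sum and SULT1C4 held in all 14 alternatives, with the direction unchanged. With no filter on low values, 1806 genes were called in place of 5032, and 1 enzyme was higher and 9 lower. There the UGT1A sum passed only narrowly (limma, adjusted p = 0.04999), and the 9 names had an adjusted p of 0.0397 to 0.0450. This alternative tests 39306 names. Leaving out each library in turn gave 2513 to 3218 genes called, 2 to 3 enzymes higher and 10 to 12 lower. The lone library of an arm was then assumed to vary like the others. Limma-voom on recovered reads called 3278 genes higher and 3954 lower, with 3 enzymes higher and 19 lower. The numbers do not pair the libraries by the labels, and deviations of same-numbered libraries correlated across 20221 genes with r = 0.0628. The replicate block gave 5129 calls, with 3 enzymes higher and 15 lower, and a crossed pairing gave 4891, with 3 higher and 14 lower.

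Signs turned only for enzymes without a call. SULT1A1 gave 0.0294 with values as deposited and 0.0535 with the length trend removed, where GSTM2 gave 0.0244. Leaving out each library in turn gave -0.302 to 0.248 for SULT1A1, -0.409 to 0.296 for GSTM2, -0.180 to 0.483 for GSTT2, -0.162 to 0.408 for SULT1A2 and -0.0340 to 0.206 for GSTM3. The cause was not tested. Depth left 13 enzymes untested, and the knockdown libraries are the shallower ones.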
